A study of Mus musculus with 4 samples.

Results

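The genes described here are 8 of the 32285 measured in mouse tumours: the class II transactivator gene Ciita, the invariant chain gene Cd74, the classical class II genes H2-Aa, H2-Ab1 and H2-Eb1, and the peptide-editing genes H2-DMa, H2-DMb1 and H2-DMb2. They were taken by symbol from both expression tables, and all 8 were found. Each was summed over nuclei sorted by marker genes that are not among the 8. The tumours grew from CT26, a colon carcinoma line that arose in a BALB/c mouse, under the skin of the right flank of BALB/c hosts and were taken on day 14. The Sun1_KO tumour came from CT26 cells without Sun1, a gene for an inner nuclear membrane protein, and the Sun1_WT tumour from CT26 cells with it. Both tumours therefore contained host immune cells that were not edited. Each genotype gave 1 expression library and 1 chromatin accessibility library of the same nuclei, made with a kit that reads both. The sources used here do not say whether a cell line was a single clone, how many tumours entered a library, or which stretch of Sun1 was removed.

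MHC class II molecules present peptides from outside the cell to CD4+ T cells. An alpha and a beta chain pair in the endoplasmic reticulum with the invariant chain, which fills the groove and carries the pair to endosomes. There cathepsins cut the chain down to a short remnant, and the H2-DM molecule exchanges this remnant for peptide. Macrophages, dendritic cells and B cells carry class II without stimulation or raise it on activation, while most other cells, many carcinoma lines among them, make it under interferon gamma. In both settings the coactivator CIITA is the switch. It binds no DNA itself, and docks on the RFX, CREB and NF-Y factors that sit on the X and Y boxes of class II promoters. Ciita has several promoters, used by different kinds of cells.

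Those boxes could be read in the promoters of 4 of the 8 genes, and are shown because they are the shared element on which CIITA acts. RefSeq windows of 300 bases, 250 before and 50 after a gene start (GRCm38.p6), were at hand for H2-Aa, H2-Eb1, H2-DMa, H2-DMb1 and H2-DMb2. An X-box-like run, AACNNTGANG or AACNNNTGANG, followed within 30 bases on the same strand by the Y-box core GATTGG, was searched on both strands. The letters were set with these windows in view. The stretches below hold the pair, with both boxes in capitals.
H2-Aa: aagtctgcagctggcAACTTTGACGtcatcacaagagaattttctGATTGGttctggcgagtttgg
H2-Eb1: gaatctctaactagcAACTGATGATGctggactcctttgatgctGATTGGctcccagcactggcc
H2-DMb1: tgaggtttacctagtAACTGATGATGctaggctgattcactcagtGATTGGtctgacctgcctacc
H2-DMb2: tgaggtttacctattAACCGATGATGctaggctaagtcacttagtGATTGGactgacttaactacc
The H2-Aa stretch is chr17:34287852-34287917 on the minus strand. The others lie on the plus strand, at chr17:34305763-34305827 for H2-Eb1, chr17:34153084-34153149 for H2-DMb1 and chr17:34145113-34145178 for H2-DMb2. The boxes are 18 to 20 bases apart in all 4, and each stretch lies within a region that was accessible in both libraries. Neither of the 2 H2-DMa windows held the pair, which says only that these letters are absent there. Of all 32851 windows, 37 (0.113%) held the pair, 5.77% held the X-box-like run and 16.1% held GATTGG.

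In gene expression, 2404 nuclei with 35471291 unique molecular identifiers (UMIs, which count RNA molecules) were deposited for Sun1_KO, and 3455 nuclei with 53707675 for Sun1_WT. With 1 library per genotype there is no replicate and no test. Ranges in parentheses are 95% intervals that cover counting error only. They are Poisson intervals of a sum, exact binomial (Clopper-Pearson) intervals of a share, or intervals of a ratio from the exact binomial split of both counts. Where a count is 0, the share it allows is given as 3 counts of the total, not as an exact binomial bound. Log2 ratios are Sun1_KO over Sun1_WT. Levels are in CPM, the UMIs of a gene summed over nuclei and scaled to a fixed total of all UMIs of the same nuclei, mitochondrial genes left out. CPM is not scaled by gene length, so genes are not ranked against each other. The libraries shared 12 barcodes, and the mitochondrial share of UMIs was higher in Sun1_KO nuclei (11.1% against 6.94% in tumour nuclei, 9.09% against 5.76% in myeloid nuclei). Its part in the results was not tested.

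Nuclei were called myeloid when at least 4 of 11 macrophage and monocyte markers were detected with at most 1 UMI of Hmga2, a chromatin gene abundant in CT26 cells. They were called tumour nuclei when at least 2 Hmga2 UMIs and no Ptprc, the pan-leukocyte gene, were found and at most 2 myeloid markers. This gave 282 Sun1_KO and 306 Sun1_WT myeloid nuclei, and 928 Sun1_KO and 1978 Sun1_WT tumour nuclei. Xist, the X-inactivation RNA of female cells, was not used for sorting. It was found in 92.9% of Sun1_KO and 95.1% of Sun1_WT myeloid nuclei, against 2.48% and 1.87% of tumour nuclei of the same libraries. Sun1 itself stood at 59.4 CPM (814 UMIs) in Sun1_KO and 104.5 CPM (3367 UMIs) in Sun1_WT tumour nuclei, a log2 ratio of -0.81 (-0.93 to -0.70). In the unedited myeloid nuclei its ratio was -0.05 (-0.64 to 0.52). Counts from outside the removed stretch check nothing about the knockout. In the mm10 coordinates of RefSeq, Ciita lies on chromosome 16 at 10480014 to 10531064 and Cd74 on chromosome 18 at 60803849 to 60812652. The other 6 lie on chromosome 17, H2-DMa at 34119693 to 34139101, H2-DMb2 at 34143229 to 34151553, H2-DMb1 at 34153191 to 34160229, H2-Ab1 at 34263227 to 34269418, H2-Aa at 34282744 to 34287823 and H2-Eb1 at 34305867 to 34316674. Ciita overlaps Dexi and LOC115488669 in that annotation, and whether the counting used strand is not stated.

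Class II RNA was carried mainly by myeloid nuclei in both tumours. Summed over Cd74, H2-Aa, H2-Ab1 and H2-Eb1, myeloid nuclei held 55.1% of the class II UMIs of the Sun1_KO library and 54.9% of those of the Sun1_WT library, although they were 12.98% and 9.15% of the nuclei. Tumour nuclei held 6.24% in Sun1_KO and 18.7% in Sun1_WT. Nuclei with both myeloid markers and Hmga2, 262 in Sun1_KO and 219 in Sun1_WT, held 24.9% and 16.0%. No doublet caller was run, and these mixed nuclei were left out. Nuclei that met no rule held 13.4% in Sun1_KO and 10.2% in Sun1_WT, at 354.1 and 227.4 CPM.

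The plot of levels by gene and kind of nucleus shows all 8 genes highest in myeloid nuclei. The sum of the 4 main genes was 7074 CPM in Sun1_KO and 7449 CPM in Sun1_WT myeloid nuclei, a log2 ratio of -0.07 (-0.11 to -0.04). The same sum was 81.0 CPM in Sun1_KO and 129 CPM in Sun1_WT tumour nuclei. Lymphocyte nuclei, called by at least 3 of 9 T and NK cell markers, served as a background, since mouse T and NK cells make little or no class II. They gave 142.5 CPM in Sun1_KO and 122.3 CPM in Sun1_WT, as high as the tumour nuclei. Free RNA in the droplets gives UMIs in nuclei that do not express a gene, and its part in the tumour level was not tested.

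**Figure D1:**
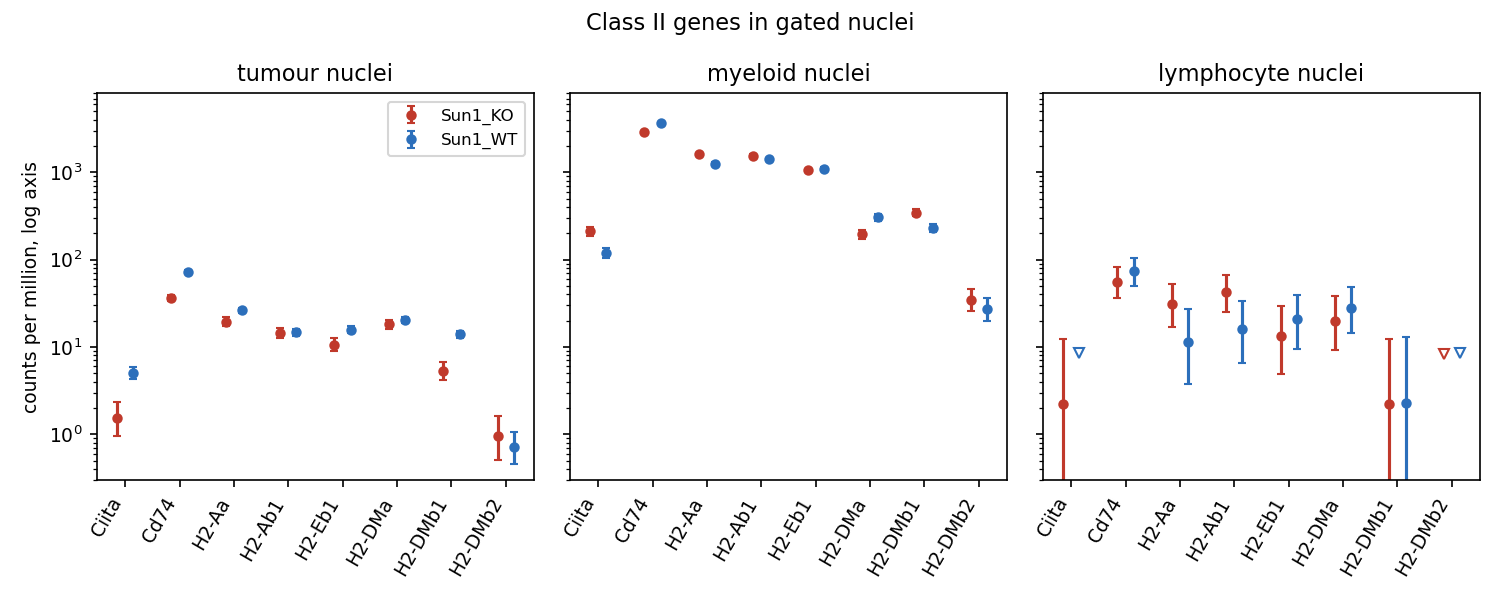
CPM of the 8 genes (log axis) in tumour, myeloid and lymphocyte nuclei of the Sun1_KO (red) and Sun1_WT (blue) libraries. Bars are 95% Poisson intervals, and open triangles mark the upper bound where no UMI was found. Myeloid nuclei lie far above the others for all 8 genes. In tumour nuclei Ciita stood at 1.53 CPM in Sun1_KO and 5.06 CPM in Sun1_WT.

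In myeloid nuclei the class II genes did not move together between the genotypes. Ciita and H2-DMb1 were higher in Sun1_KO, Cd74 and H2-DMa were lower, and the classical genes stood close to equal apart from H2-Aa. None of the 8 was past 2-fold in either direction. Of the 5628 genes with at least 100 UMIs, 0.675% were higher by 2-fold or more and 0.871% lower by as much, so a count of 0 in 8 is near the background. Of the 8, 7 reached that minimum, all but H2-DMb2. The median log2 ratio of the 8 was 0.23, against 0.07 over all of those genes.

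Ciita, the transactivator, had 295 UMIs (213 CPM) in the 282 Sun1_KO myeloid nuclei and 196 UMIs (119.6 CPM) in the 306 Sun1_WT nuclei. The log2 ratio was 0.83 (0.57 to 1.10), and 98.5% of the genes compared had a lower one. It was detected in 45.04% (39.1 to 51.05) of Sun1_KO and 35.3% (29.9 to 40.9) of Sun1_WT myeloid nuclei. After each nucleus was thinned to 2000 UMIs, which kept 259 Sun1_KO and 292 Sun1_WT nuclei, these shares were 25.1% (19.9 to 30.8) and 19.5% (15.1 to 24.5), and the log2 ratio was 0.45 (0.01 to 0.89).

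Cd74, whose product escorts and shields the groove, had 2867 CPM in Sun1_KO and 3713 CPM in Sun1_WT myeloid nuclei. This is a log2 ratio of -0.37 (-0.43 to -0.32). Nearly the same share of nuclei had at least 1 Cd74 UMI, 83.3% in Sun1_KO and 83.0% in Sun1_WT. Thinned to 2000 UMIs, the shares were 76.1% (70.4 to 81.1) in Sun1_KO and 78.1% (72.9 to 82.7) in Sun1_WT. The most Cd74 UMIs in a nucleus were 116 in Sun1_KO and 167 in Sun1_WT.

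Of the classical genes, H2-Aa, the alpha chain of the I-A molecule, had 1617 CPM in Sun1_KO and 1243 CPM in Sun1_WT, a log2 ratio of 0.38 (0.29 to 0.47). Its partner H2-Ab1 had 1539 CPM in Sun1_KO and 1408 CPM in Sun1_WT, at 0.13 (0.04 to 0.21). The H2-Ab1 interval included 0 with TMM scaling, at 0.05 (-0.03 to 0.14), and with median-ratio scaling, at 0.06 (-0.03 to 0.14). H2-Eb1, the beta chain of the I-E molecule, had 1051 CPM in Sun1_KO and 1085 CPM in Sun1_WT, at -0.05 (-0.15 to 0.05), a difference within counting error. The interval of H2-Eb1 was clear of 0 with TMM scaling, at -0.12 (-0.22 to -0.02), and with median-ratio scaling, at -0.12 (-0.22 to -0.02). H2-Aa was found in 73.8% of Sun1_KO and 66.3% of Sun1_WT nuclei. For H2-Ab1 the shares were 73.8% and 69.9%, and for H2-Eb1 66.0% and 61.8%. The alpha and beta chains of I-A thus differed between the libraries by unequal amounts.

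The peptide-editing genes went in opposite directions. H2-DMa, the alpha chain of the editor, had 195 CPM in Sun1_KO and 305 CPM in Sun1_WT myeloid nuclei, a log2 ratio of -0.64 (-0.86 to -0.43), and was found in 50.7% (44.7 to 56.7) and 63.4% (57.7 to 68.8) of nuclei. H2-DMb1, a beta chain, had 345 CPM in Sun1_KO and 229 CPM in Sun1_WT, at 0.59 (0.40 to 0.79). It was detected in 53.9% of Sun1_KO and 46.1% of Sun1_WT nuclei. H2-DMb2, the other beta chain gene, had only 48 UMIs in Sun1_KO and 45 in Sun1_WT, and its ratio of 0.33 (-0.28 to 0.95) was not distinguishable from 0 at this depth. H2-DMb1 and H2-DMb2 are close copies, so reads may have been split between them, and H2-DMa overlaps Brd2 in the annotation, so both its count and its accessibility may hold signal of that gene.

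Leaving only myeloid nuclei with 0 Hmga2 UMIs, 222 in Sun1_KO and 245 in Sun1_WT, kept the direction of 8 of 8 genes. The log2 ratios there were 0.81 (0.52 to 1.11) for Ciita, -0.43 (-0.49 to -0.36) for Cd74, 0.31 for H2-Aa, 0.03 (-0.06 to 0.13) for H2-Ab1 and -0.18 (-0.29 to -0.07) for H2-Eb1. The peptide-editing genes stood at -0.67 for H2-DMa, 0.60 for H2-DMb1 and 0.31 for H2-DMb2. The sum of the 4 main genes was 7341 CPM in Sun1_KO and 8151 CPM in Sun1_WT, at -0.15 (-0.19 to -0.11).

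The myeloid nuclei of the libraries were not alike in other respects. Over the 11 sorting markers the summed level was 10602 CPM in Sun1_KO and 15152 CPM in Sun1_WT, with all 11 detected in both. The 8 myeloid markers not used for sorting went both ways. Apoe, a lipid carrier gene of mature macrophages, had 1849 CPM in Sun1_KO and 3093 CPM in Sun1_WT. Ms4a7 (324 and 654 CPM), Pf4 (41.1 and 125 CPM) and Mpeg1 (788 and 937 CPM) were lower in Sun1_KO as well. Ly86 (592 and 435 CPM), Aif1 (429 and 331 CPM) and Cybb (1153 and 1060 CPM) were higher in Sun1_KO. Spi1 was close to equal, at 298 and 299 CPM. Of 9 dendritic cell markers, 8 were detected in Sun1_KO and 5 in Sun1_WT, with sums of 149 and 103 CPM, and at least 2 of them were found in 22 and 14 nuclei. Among them Siglech had 42 UMIs in Sun1_KO and 0 in Sun1_WT, while Itgax was lower in Sun1_KO, at 62.0 against 73.2 CPM. Of 7 B cell markers, 3 were detected in Sun1_KO and 4 in Sun1_WT, and Cd79a was at 0 in both. Their sums were 55.5 CPM in Sun1_KO and 28.7 CPM in Sun1_WT, with Ebf1 at 42 UMIs in Sun1_KO and 1 in Sun1_WT. Without the nuclei carrying at least 2 dendritic or B cell markers, the log2 ratios were 0.72 for Ciita, 0.55 for H2-DMb1, -0.70 for H2-DMa and -0.46 for Cd74. The classical genes stood there at 0.29 (0.19 to 0.38) for H2-Aa, 0.03 (-0.06 to 0.12) for H2-Ab1 and -0.19 (-0.30 to -0.08) for H2-Eb1. The part of the macrophage marker levels in the class II differences was not tested.

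A split by the complement genes C1qa, C1qb and C1qc, which mark resident-like tumour macrophages, left the Ciita difference in place. With at least 2 of the 3 detected, Ciita had 184 CPM (160 to 211) in 198 Sun1_KO nuclei and 98.8 CPM (82.6 to 117) in 216 Sun1_WT nuclei. With fewer, it had 326 CPM (262 to 401) in 84 Sun1_KO nuclei and 211 CPM (163 to 270) in 90 Sun1_WT nuclei. The nuclei with fewer were also shallower, so the split sorted nuclei by depth as well. Their median depth was 2934 UMIs in Sun1_KO and 3091.5 in Sun1_WT, against 5637.5 and 6172.5 with at least 2. H2-DMa was lower in Sun1_KO in both groups, at 197 against 308 CPM with the C1q genes and 188 against 294 CPM without them. The H2-DMb1 difference was seen mainly with the C1q genes, at 359 CPM (325 to 396) in Sun1_KO and 221 CPM (197 to 248) in Sun1_WT. Without them it was 289.9 CPM (229.9 to 361) in Sun1_KO and 261 CPM (206 to 325) in Sun1_WT, ranges that overlap.

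Across single myeloid nuclei, those with Ciita RNA were also those with more class II RNA. In Sun1_KO the median of the 4 summed genes was 6 UMIs in 155 nuclei without Ciita, 33 in 56 nuclei with 1 Ciita UMI and 53 in 71 nuclei with 2 or more. In Sun1_WT it was 7 UMIs in 198, 48.5 in 54 and 69 in 54 nuclei. Nuclei with no class II UMI at all had Ciita in 0 cases in Sun1_KO and 1 in Sun1_WT, against 35 and 37 without Ciita. Median depth was 4353, 4106 and 6613 UMIs in the 3 Sun1_KO classes, and 5111, 4734.5 and 4976 in the Sun1_WT classes. In Sun1_WT the classes thus had about the same depth, whereas in Sun1_KO the nuclei with 2 or more Ciita UMIs were deeper.

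**Figure D2:**
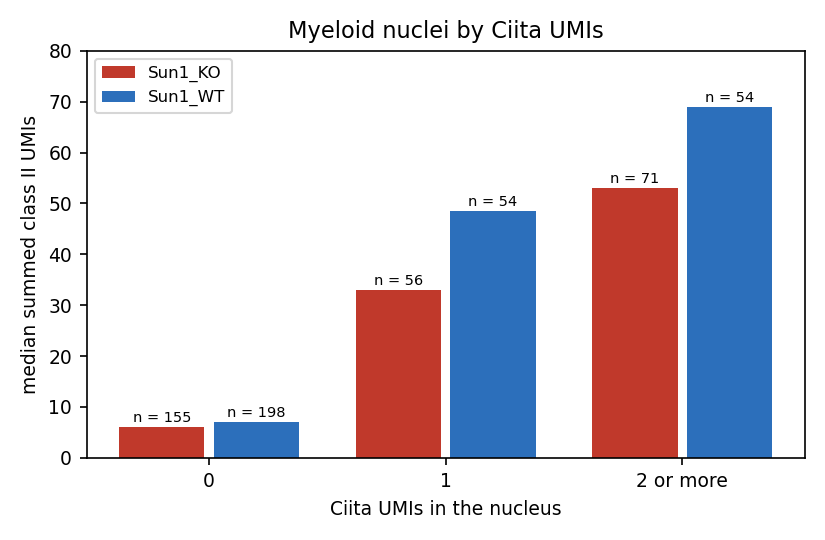
Median summed UMIs of Cd74, H2-Aa, H2-Ab1 and H2-Eb1 in myeloid nuclei with 0, 1 or at least 2 Ciita UMIs, for Sun1_KO (red) and Sun1_WT (blue), with the number of nuclei above each bar. The bars step up with Ciita in both libraries, over 6, 33 and 53 UMIs in Sun1_KO and 7, 48.5 and 69 UMIs in Sun1_WT.

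The 4 main genes varied together from nucleus to nucleus. On a log scale of counts per 10000, the 6 pairwise Pearson correlations among Cd74, H2-Aa, H2-Ab1 and H2-Eb1 were 0.80 to 0.85 in the 282 Sun1_KO nuclei and 0.78 to 0.87 in the 306 Sun1_WT nuclei. Nuclei of a library share its depth and its free RNA, and the sum of the 4 had a correlation of 0.07 in Sun1_KO and -0.01 in Sun1_WT with log depth. H2-DMb1 had correlations of 0.60 to 0.64 with these 4 genes in Sun1_KO and 0.56 to 0.61 in Sun1_WT. Ciita followed at 0.40 to 0.45 in Sun1_KO and 0.45 to 0.56 in Sun1_WT. H2-DMa stood lower, at 0.32 to 0.36 in Sun1_KO and 0.23 to 0.31 in Sun1_WT, and H2-DMb2 lowest, at 0.14 to 0.21 in Sun1_KO and 0.11 to 0.14 in Sun1_WT.

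Genes outside the family were ranked by their correlation with the sum of the 4. Of 3064 genes with at least 100 UMIs in each library, the 10 with the highest lower correlation were AW112010, Cxcl9, C3, Marcks, Mmp14, Btg1, Fcgr4, Gbp8, Grk3 and Pla2g7. AW112010, an interferon-induced transcript, had a correlation of 0.33 in Sun1_KO and 0.26 in Sun1_WT, and Cxcl9, a chemokine gene induced by interferon gamma, had 0.30 and 0.26. These lie below the values among the 4 main genes and above those of H2-DMb2, which were taken gene by gene and not against the sum. In sparse counts such weak values are a ranking only.

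Among genes around the pathway, the lysosomal proteases stood lower in Sun1_KO myeloid nuclei. The lists were chosen with earlier results of these data known, and no list was tested. Of 6 antigen processing genes 1 was past 2-fold, Ctsl, which cuts the invariant chain in thymic epithelium, at 459 CPM in Sun1_KO and 937 CPM in Sun1_WT (-1.03, -1.17 to -0.90). Ctss, the protease that cuts it in macrophages and dendritic cells, had 2722 CPM in Sun1_KO and 4251 CPM in Sun1_WT (-0.64). Lgmn, Ctsb and Ctsd stood between -0.27 and -0.21, and Ifi30, the lysosomal thiol reductase, at 0.01, which turned to -0.06 with TMM scaling, a trimmed mean over genes. The list median was -0.25, against 0.07 over all genes.

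The genes that pass on the interferon gamma signal, which induces Ciita were read next in myeloid nuclei. Above 0 were 8 of 9, where 58.8% of all 5628 genes were above 0. With TMM scaling 8 of 9 were above 0 as well. Past 2-fold were 0 of 9, with a median of 0.35 against 0.07 over all genes. Irf1, which acts on a Ciita promoter, had 450 CPM in Sun1_KO and 309 CPM in Sun1_WT (0.55, 0.37 to 0.72), and Socs1, the feedback inhibitor, stood at 0.48 (0.06 to 0.90). The lowest were Jak1, a receptor kinase, at -0.30 (-0.54 to -0.07), and Ifngr1, the ligand-binding receptor chain, at 0.13 (-0.21 to 0.47). Of the 7 promoter-bound factors only 4 reached 50 UMIs, at -0.03 for Nfyc, 0.17 for Nfya, 0.24 for Nfyb and 0.29 for Creb1. Rfx5 had 11 UMIs in Sun1_KO and 6 in Sun1_WT, too few to compare.

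March1, which sends surface class II to degradation, stood at 0.23 (0.07 to 0.39) and March8, its relative, at -0.09 (-0.52 to 0.34). Cd83, which holds class II at the surface against March1, stood at -0.38 (-0.64 to -0.12), so 0 of these 3 were past 2-fold. Of 4 costimulation genes 1 was past 2-fold, Icosl, at 37 UMIs in Sun1_KO and 21 in Sun1_WT (1.04, 0.25 to 1.90; 0.97 with TMM scaling), and the others were Cd40 at 0.29, Cd86 at 0.03 and Cd80 at 0.02. The 3 remaining class II genes, H2-Oa, H2-Ob and H2-Eb2, had 6 UMIs or fewer in either library and were not compared.

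In tumour nuclei the summed level of the 4 main genes was lower in Sun1_KO. It was 81.0 CPM (76.3 to 85.9) in Sun1_KO and 129 CPM (125 to 133) in Sun1_WT, a log2 ratio of -0.67 (-0.77 to -0.58). Of the 8 genes 7 stood below 0, where 61.1% of the 12246 genes compared stood above 0. Ciita and H2-DMb1, 2 of the 8, were at least 2-fold lower, where 2.6% of the 12246 were that much lower and 1.8% that much higher. Cd74 joined them with TMM scaling, at -1.18, and with median-ratio scaling, at -1.11, and the other 5 stayed within 2-fold. The intervals of H2-Ab1, H2-DMa and H2-DMb2 include 0. The median of the 8 was -0.50, against 0.12 over all of those genes. With no limit on myeloid markers or Ptprc in tumour nuclei the 4-gene ratio was 0.0348, the other way. The plot of ratios sets both kinds of nuclei side by side.

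**Figure D3:**
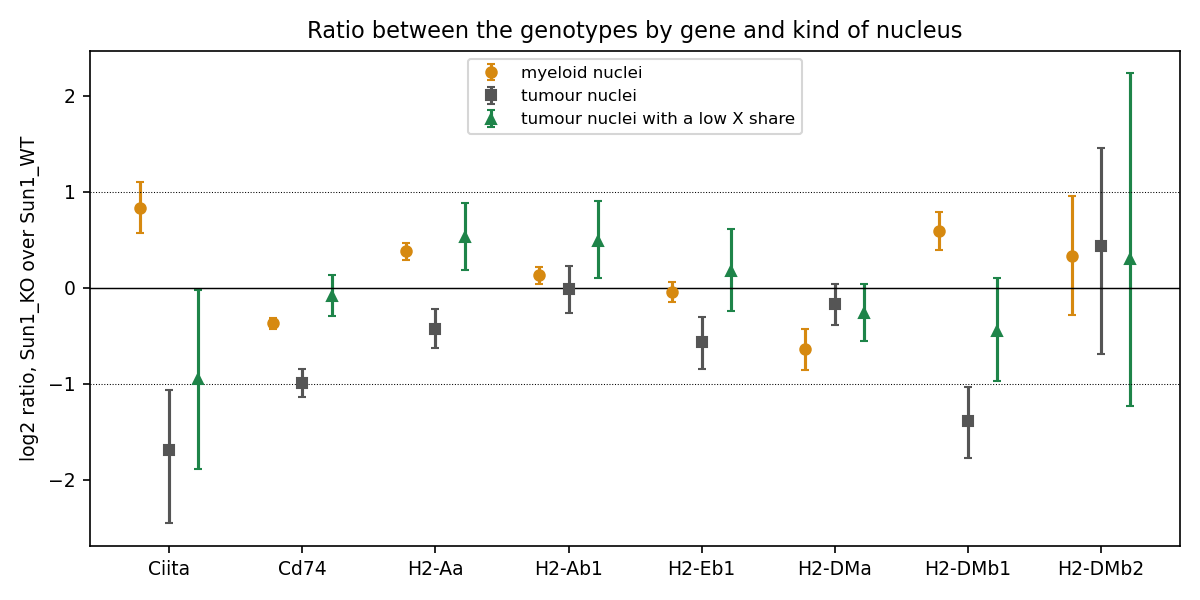
Log2 ratio of Sun1_KO over Sun1_WT for each gene in myeloid nuclei (circles), tumour nuclei (squares) and tumour nuclei with a low accessibility share of the X stretch in both libraries (triangles). Bars are 95% intervals for counting error, and dotted lines mark 2-fold. Ciita is at 0.83 in myeloid and -1.69 in tumour nuclei, and the tumour ratios of H2-Aa and H2-Eb1 are above 0 in the low-share nuclei.

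Ciita had 21 UMIs (1.53 CPM, 0.949 to 2.34) in the 928 Sun1_KO tumour nuclei and 163 UMIs (5.06 CPM, 4.31 to 5.90) in the 1978 Sun1_WT tumour nuclei. The log2 ratio was -1.69 (-2.45 to -1.06). It was detected in 2.16% (1.32 to 3.31) of Sun1_KO and 5.51% (4.55 to 6.61) of Sun1_WT tumour nuclei. In lymphocyte nuclei 1 of 143 Sun1_KO and 0 of 135 Sun1_WT nuclei had a Ciita UMI, and 0 of 135 allows a share of up to 2.22%. Lymphocyte nuclei were far shallower, with medians of 2903 UMIs in Sun1_KO and 2811 in Sun1_WT, against 15023.5 and 16061.5 in tumour nuclei. Thinned to 2000 UMIs, Ciita was found in 0.333% of Sun1_KO and 1.03% of Sun1_WT tumour nuclei.

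Cd74 had 36.3 CPM in Sun1_KO and 72.3 CPM in Sun1_WT tumour nuclei, at -0.99 (-1.13 to -0.85). At least 1 Cd74 UMI was found in 37.0% of Sun1_KO and 37.8% of Sun1_WT nuclei. Thinned to 2000 UMIs, these shares lay apart, at 6.77% (5.22 to 8.61) in Sun1_KO and 11.3% (9.90 to 12.8) in Sun1_WT. The most UMIs in a nucleus were 11 in Sun1_KO and 33 in Sun1_WT.

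The classical genes differed less. H2-Aa had 19.5 CPM in Sun1_KO and 26.2 CPM in Sun1_WT (-0.43, -0.63 to -0.23), H2-Eb1 had 10.7 and 15.8 CPM (-0.57, -0.85 to -0.30), and H2-Ab1 had 14.5 and 14.7 CPM (-0.01, -0.26 to 0.23). H2-DMb1 had 73 UMIs (5.33 CPM) in Sun1_KO and 451 UMIs (14.0 CPM) in Sun1_WT, at -1.39 (-1.77 to -1.03), and was detected in 6.57% (5.06 to 8.36) and 11.8% (10.4 to 13.3) of nuclei. H2-DMa had 18.1 CPM in Sun1_KO and 20.4 CPM in Sun1_WT (-0.17, -0.39 to 0.04). Its tumour level was 9.27% of its myeloid level in Sun1_KO and 6.70% in Sun1_WT, where the sum of the 4 main genes was at 1.15% and 1.73%. H2-DMb2, with 13 UMIs in Sun1_KO and 23 in Sun1_WT, was not resolved.

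At least 1 UMI of the 4 main genes was found in 60.5% (57.2 to 63.6) of Sun1_KO and 55.6% (53.3 to 57.8) of Sun1_WT tumour nuclei. After thinning to 2000 UMIs the shares were 14.0% (11.8 to 16.4) and 17.4% (15.7 to 19.2), the other way round. In lymphocyte nuclei they were 35.7% in Sun1_KO and 29.6% in Sun1_WT unthinned, and 24.8% and 22.5% thinned. Lymphocyte nuclei were much shallower than tumour nuclei, so the unthinned shares are not at like depth, and thinning took away a larger part of the UMIs of a tumour nucleus. Nuclei with many class II UMIs were compared next, at a threshold of 10 UMIs chosen after the data were seen.

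At 10 or more UMIs of the 4 main genes stood 5 of 928 Sun1_KO tumour nuclei (0.539%, 0.175 to 1.25) and 102 of 1978 Sun1_WT tumour nuclei (5.16%, 4.22 to 6.23). At 20 or more there were 0 of 928 in Sun1_KO, which allows a share of up to 0.323%, and 37 in Sun1_WT (1.87%, 1.32 to 2.57). The highest nucleus had 14 UMIs in Sun1_KO and 55 in Sun1_WT. No lymphocyte nucleus of either library reached 5. At medians of 2903 UMIs in Sun1_KO and 2811 in Sun1_WT these were far shallower, so this is no background at like depth. In myeloid nuclei the share at 10 or more was 61.7% in Sun1_KO and 61.4% in Sun1_WT.

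**Figure D4:**
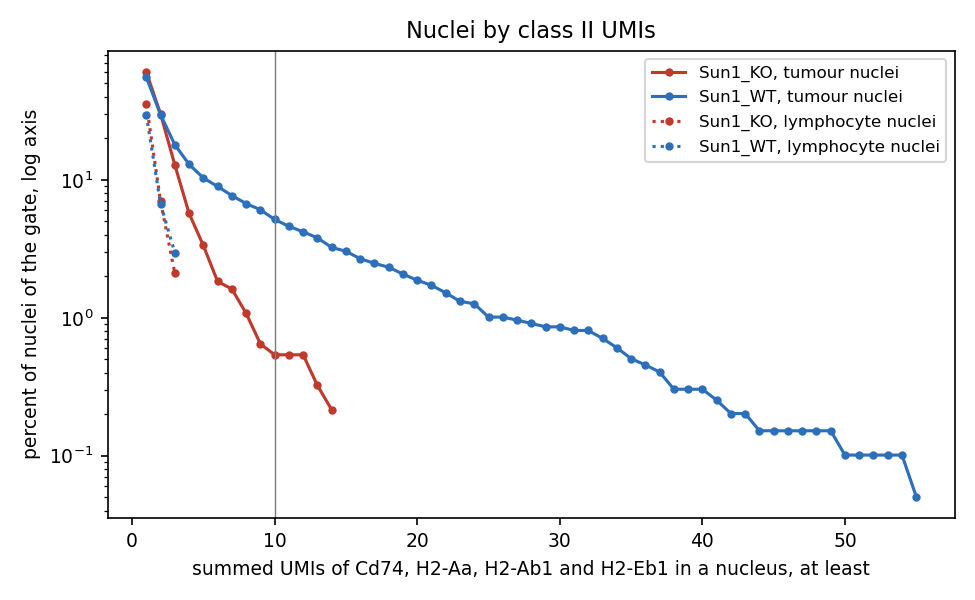
Percent of nuclei (log axis) with at least the given number of summed UMIs of Cd74, H2-Aa, H2-Ab1 and H2-Eb1, for tumour (solid) and lymphocyte (dotted) nuclei of Sun1_KO (red) and Sun1_WT (blue). The tumour curves start close together and lie apart at 5 UMIs, at 3.34% in Sun1_KO and 10.3% in Sun1_WT, and the grey line marks 10 UMIs. The Sun1_KO curve ends at 14 UMIs and the Sun1_WT curve at 55.

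The 102 class II-high Sun1_WT tumour nuclei held 47.9% of the class II UMIs of all Sun1_WT tumour nuclei. Without nuclei at 10 or more UMIs in either library, the log2 ratio of the 4-gene sum was 0.10 (-0.01 to 0.21), with 76.7 CPM in Sun1_KO and 71.7 CPM in Sun1_WT. Nuclei were left out here by the UMIs that are then summed, so a smaller gap follows in part from the construction. Ciita, which was not used for the choice, had 1.32 CPM in the remaining Sun1_KO and 3.28 CPM in the remaining Sun1_WT nuclei.

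The genes not used to choose the 102 nuclei were set against those of the other 1876 Sun1_WT tumour nuclei. Of 11587 genes with at least 100 UMIs, 0.82% were higher in the class II-high nuclei by 2-fold or more and 1.7% lower by as much. Ciita was found in 32 of the 102 (31.4%, 22.5 to 41.3) and in 77 of the 1876 (4.10%, 3.25 to 5.10), at 31.7 and 3.28 CPM. H2-DMb1 had 115 CPM in the class II-high nuclei and 7.25 CPM in the others, a log2 ratio of 3.99 (3.71 to 4.26). H2-DMa had 64.9 and 17.5 CPM, at 1.90 (1.61 to 2.17), and H2-DMb2 had 9 UMIs (4.46 CPM) and 14 UMIs (0.464 CPM). All 4 members outside the sum were therefore higher in the nuclei chosen by the sum.

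Markers of macrophages were low in these nuclei and in the others. The tumour rule, with at most 2 myeloid markers and no Ptprc, fixes this in part. Ctss had 15.4 CPM in the class II-high and 15.9 CPM in the other Sun1_WT tumour nuclei, Apoe 12.4 and 17.0 CPM, and Ms4a7 2.48 and 3.05 CPM. Xist was found in 2 of the 102 (1.96%) and 35 of the 1876 (1.87%). Of 8 myeloid markers not used for sorting, Mpeg1, a perforin-like gene, was past 2-fold higher, at 20.8 against 7.22 CPM. Aif1 had 4.46 against 3.58 CPM, Cybb 1.98 against 1.89 CPM, Spi1 0.991 against 1.06 CPM and Pf4 0.496 against 1.39 CPM, and Ly86 was at 0 UMIs against 28. In the class II-high nuclei these rest on few UMIs, 9 for Aif1, 5 for Ms4a7, 4 for Cybb, 2 for Spi1 and 1 for Pf4. Whether the levels of these genes are alike is therefore not resolved. Median depth was 19176 UMIs in the class II-high nuclei and 15893 in the others, and Hmga2 had 2763 and 2823 CPM.

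Outside the family, genes among the 10 with the highest lower bound of the ratio are named here, picked by size after the values were seen. Of these, 4 encode guanylate-binding proteins, which interferon gamma is known to induce, with 565 against 239 CPM for Gbp2b, 712 against 314 CPM for Gbp7, 377 against 144.5 CPM for Gbp4 and 32.2 against 11.1 CPM for Gbp10. Ubd, a ubiquitin-like modifier, had 17.8 against 4.90 CPM, Apol6 71.9 against 25.4 CPM and Slamf8 14.9 against 3.64 CPM. Dmp1, known from bone matrix, had 29.7 against 6.69 CPM, and Ly6c1 305 against 123 CPM.

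Among the pathway genes Irf1 had 149 CPM in the class II-high and 101 CPM in the other Sun1_WT tumour nuclei, at 0.56 (0.39 to 0.73). The receptor genes Ifngr1 at 0.14 and Ifngr2 at 0.06 and the kinase genes Jak1 at 0.18 and Jak2 at 0.13 all had intervals that include 0. Among the 10 genes furthest below 0, also picked after the values were seen, were the collagen gene Col10a1 with 0 against 557 UMIs, Igfbp3, which binds insulin-like growth factors, with 0 against 480 UMIs, and the matrix gene Tnc with 13 against 1681 UMIs. Ero1l, an oxidoreductase gene known for its response to hypoxia, had 125 against 402 CPM.

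Over all tumour nuclei the interferon gamma genes were not generally lower in Sun1_KO. Of the 9 genes 8 stood above 0, where 61.1% of all 12246 genes did, or 5 of the 9 with TMM scaling. Past 2-fold were 0 of 9, with a median of 0.21 against 0.12 over all genes. Irf1 had 125 CPM in Sun1_KO and 104 CPM in Sun1_WT (0.27, 0.18 to 0.35). Irf8 stood at 0.98 (0.51 to 1.45) on 73 UMIs in Sun1_KO and 87 in Sun1_WT, Jak1 at -0.17 and Ifngr1 at 0.01. Ciita and Irf1 thus lay on opposite sides of 0 in tumour nuclei, also with TMM scaling, where Irf1 stood at 0.08. TMM scaling moved the median of all genes to -0.06, and Ifngr1, Ifngr2 and Jak2 were then below 0.

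Of the 7 promoter-bound factors 0 were past 2-fold in tumour nuclei. Rfx5, the RFX subunit that contacts DNA, had 16.6 CPM in Sun1_KO and 8.66 CPM in Sun1_WT (0.94, 0.68 to 1.20), and Nfyc stood at 0.42 (0.30 to 0.53). Rfxap, another RFX subunit, was lowest at -0.60 (-0.84 to -0.37), followed by Nfyb at -0.33. Of 6 antigen processing genes 5 stood below 0, where 61.1% of all 12246 genes stood above 0. The lowest was Ctsl at -0.90 (-0.93 to -0.87), past 2-fold at -1.09 with TMM scaling, followed by Ctsd at -0.18. The highest were Ifi30 at -0.07 and Ctss at 0.18, or -0.01 with TMM scaling. March1 had 55 UMIs in Sun1_KO and 62 in Sun1_WT (1.06, 0.51 to 1.61; 0.88 with TMM scaling), March8 at 0.28, and Cd80, the only costimulation gene with 50 UMIs, at 0.44 (0.29 to 0.59).

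The tumour nuclei of the libraries also differ in a stretch of chromosome X, from 5 to 45 Mb. It took a median of 2153 CPM of the accessibility counts of a Sun1_KO tumour nucleus and 4240 CPM of a Sun1_WT one, against 4051 and 3997 CPM in myeloid nuclei. Below 3000 CPM, a boundary chosen after earlier results, stood 896 of 928 Sun1_KO tumour nuclei and 436 of 1978 Sun1_WT tumour nuclei. Class II-high nuclei were 5 of 896 (0.558%, 0.181 to 1.30) in Sun1_KO and 6 of 436 (1.38%, 0.507 to 2.97) in Sun1_WT among these low-share nuclei. Among high-share nuclei they were 0 of 32 in Sun1_KO, which allows a share of up to 9.38%, and 96 of 1542 (6.23%, 5.07 to 7.55) in Sun1_WT. The class II-high nuclei of Sun1_WT thus lay mostly among nuclei of the kind that was rare in Sun1_KO. Genotype and this state of chromosome X cannot be told apart here.

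Between low-share nuclei only, the 4-gene sum was 81.0 CPM (76.2 to 85.9) in Sun1_KO and 71.7 CPM (65.6 to 78.1) in Sun1_WT, a log2 ratio of 0.18 (0.02 to 0.33) in place of -0.67. H2-Aa stood at 0.53 (0.19 to 0.88), H2-Ab1 at 0.49 (0.10 to 0.90), H2-Eb1 at 0.17 (-0.25 to 0.61) and Cd74 at -0.08 (-0.30 to 0.14). Ciita kept its direction, at 1.58 CPM (21 UMIs) in Sun1_KO and 3.07 CPM (22 UMIs) in Sun1_WT (-0.95, -1.89 to -0.02). H2-DMb1 stood at -0.45 (-0.98 to 0.10), no longer past 2-fold. Within the Sun1_WT library, high-share nuclei had 145 CPM and low-share nuclei 71.7 CPM of the 4-gene sum, and Ciita had 5.63 and 3.07 CPM.

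Chromatin accessibility gave another readout of the same nuclei, joined by barcode. Over the 8 gene bodies and 1 kb on either side, 33 regions were found in both libraries. Their summed share of accessibility counts was 761 CPM in Sun1_KO and 773 CPM in Sun1_WT myeloid nuclei (-0.02, -0.07 to 0.03), and 354 and 383 CPM in tumour nuclei (-0.11, -0.13 to -0.09). H2-DMa, which shares regions with Brd2, gave 255 of the 354 CPM in Sun1_KO and 264 of the 383 CPM in Sun1_WT tumour nuclei. Even numbers made up most of the recorded accessibility values, 75.5% of them in Sun1_WT, so counts were not independent of each other and their intervals are too narrow.

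In myeloid nuclei the promoter regions went the same way as the RNA for some genes and not for others. The region over the H2-Aa promoter, which holds the H2-Aa stretch shown above, had 34.9 CPM in Sun1_KO and 26.2 CPM in Sun1_WT (0.41, 0.15 to 0.68), and that of H2-DMb1 had 21.7 and 16.9 CPM (0.36, 0.03 to 0.70). The region holding the H2-Eb1 stretch had 29.3 and 28.4 CPM (0.04, -0.23 to 0.32). The region across the start of Cd74 went against its RNA, with 54.9 CPM in Sun1_KO and 39.4 CPM in Sun1_WT (0.48, 0.26 to 0.69). Over all 12 Ciita regions the ratio was 0.06 (-0.09 to 0.21), so the Ciita RNA difference in myeloid nuclei had no counterpart in its summed accessibility. Single Ciita regions went either way. The region at the lower end of the gene went the way of the RNA, with 18.2 CPM in Sun1_KO and 13.3 CPM in Sun1_WT (0.45, 0.08 to 0.83).

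Of the 33 regions, 1 was higher by 2-fold or more in Sun1_KO myeloid nuclei and 1 was lower by as much, a Ciita region 17853 bp from the lower end of the gene (1.10, 0.31 to 1.97) and the second H2-DMb1 region (-1.16, -1.77 to -0.59). Over 33409 regions with at least 100 counts in myeloid nuclei, these shares were 0.296% higher and 0.545% lower. The Ciita region had 40 counts in Sun1_KO and 20 in Sun1_WT, under that minimum, so it is not among the regions behind these shares.

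In tumour nuclei Ciita accessibility was lower in Sun1_KO, as its RNA was. Over the 12 regions it was 24.5 CPM in Sun1_KO and 32.5 CPM in Sun1_WT (-0.40, -0.48 to -0.33). A pair of regions in the first part of the gene were at least 2-fold lower, where 1.48% of 105762 regions with at least 100 counts were that much lower and 1.75% that much higher. The region chr16:10489109-10490079, which starts 9095 bp from the lower end of the gene, had 0.889 CPM in Sun1_KO and 2.46 CPM in Sun1_WT (-1.46, -1.86 to -1.09). The region chr16:10494667-10495642, starting at 14653 bp, had 1.495 CPM in Sun1_KO and 3.66 CPM in Sun1_WT, at -1.29. No other region of the 33 was past 2-fold in either direction. Among low-share nuclei alone these 2 regions stood at -1.30 (-1.82 to -0.78) and -0.81 (-1.23 to -0.37), so the direction held there.

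The same regions were more open in the class II-high Sun1_WT tumour nuclei. The first had 6.02 CPM (4.47 to 7.93) in the 102 class II-high nuclei and 2.25 CPM (1.999 to 2.51) in the other 1876, and the second had 6.26 CPM (4.67 to 8.21) and 3.50 CPM (3.19 to 3.83). The regions at 17853, 30406 and 37718 bp were higher as well, with 3.61 and 1.61 CPM, 8.79 and 5.03 CPM, and 2.41 and 0.989 CPM. The region at the lower end of Ciita had 1.08 CPM (0.495 to 2.06) in the class II-high nuclei and 0.721 CPM (0.585 to 0.880) in the others. In myeloid nuclei the region at the lower end had 18.2 CPM in Sun1_KO and 13.3 CPM in Sun1_WT, that at 9095 bp had 13.7 and 14.7 CPM, and that at 14653 bp had 4.39 and 3.55 CPM.

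**Figure D5:**
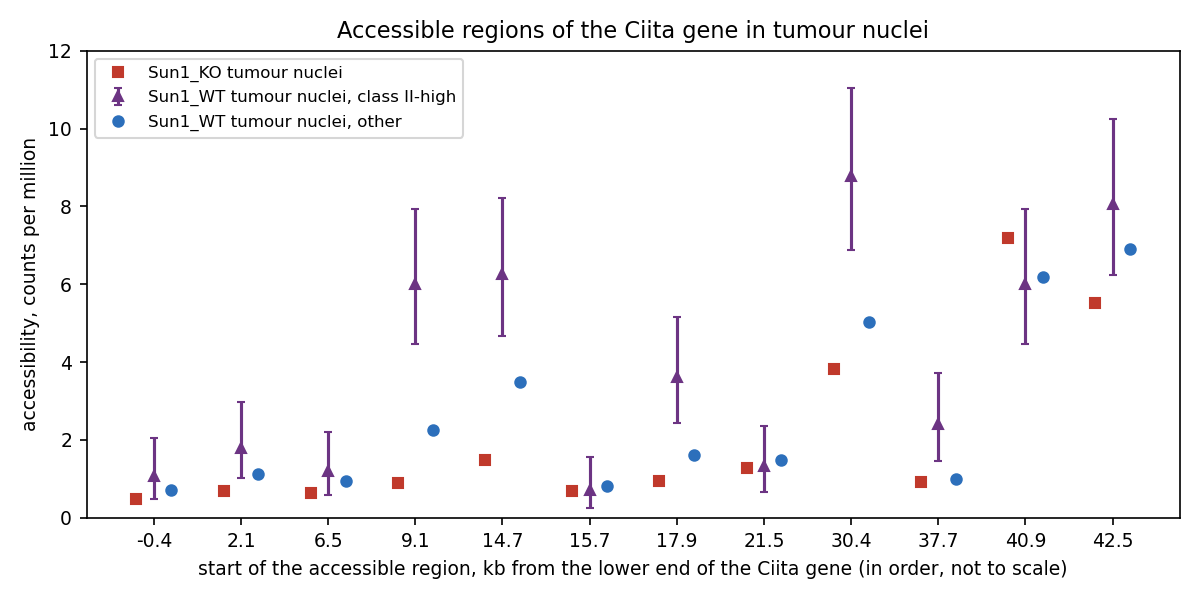
Accessibility, in CPM of all accessibility counts, of the 12 Ciita regions in Sun1_KO tumour nuclei (red squares), class II-high Sun1_WT tumour nuclei (purple triangles, with 95% Poisson intervals) and other Sun1_WT tumour nuclei (blue circles). Regions are in order along the gene, labelled by their distance from its lower end. At the regions 9095 and 14653 bp in, Sun1_KO nuclei have 0.889 and 1.495 CPM, class II-high Sun1_WT nuclei 6.02 and 6.26 CPM, and other Sun1_WT nuclei 2.25 and 3.50 CPM.

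The class II promoters themselves were also more open in the class II-high Sun1_WT nuclei, a readout that the choice by RNA did not use. The region at the start of Cd74 had 29.6 CPM (26.0 to 33.6) in the class II-high and 5.53 CPM (5.14 to 5.94) in the other nuclei. That at the start of H2-Ab1 had 18.8 and 3.598 CPM, and that of H2-Aa 28.3 and 11.1 CPM. The regions with the boxes of H2-Eb1, H2-DMb1 and H2-DMb2 had 23.5 and 7.46 CPM, 19.5 and 7.40 CPM, and 5.42 and 1.77 CPM. The H2-DMa regions, summed, had 265 and 264 CPM, which are close to each other. No share over all regions is given for class II-high against other nuclei, here or for the Ciita regions above. Of the 102 class II-high nuclei 96 were high-share nuclei of the X stretch, against 1446 of the other 1876. The part of this in the accessibility differences was not tested.

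The authors' deposited table of log2 fold changes lists 6 of the 8 genes among its 10155. In the authors' deposited table Cd74 is at -0.30, H2-Aa at 0.34, H2-Ab1 at 0.56, H2-Eb1 at 0.43, H2-DMa at 0.40 and H2-DMb1 at 0.27, where a positive value means higher in Sun1_KO. The sources used here do not say which nuclei entered it, and Ciita and H2-DMb2 are not listed. The direction for Cd74, H2-Aa, H2-Ab1 and H2-DMb1 is that of the myeloid nuclei here, while H2-DMa and H2-Eb1 have the other sign. Against the tumour nuclei here, only Cd74 (-0.99) has the same sign. In tumour nuclei H2-Aa (-0.43), H2-Ab1 (-0.01), H2-Eb1 (-0.57), H2-DMa (-0.17) and H2-DMb1 (-1.39) were below 0, opposite to the deposited values. The tumour intervals of H2-Ab1 and H2-DMa include 0. The deposited standard error of H2-DMb1 is 0.27, as large as its fold change, so its sign there is not resolved. For H2-Eb1 the ratio in myeloid nuclei here was -0.05 (-0.15 to 0.05), which includes 0.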

How the data were processed

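Per the labels, RNA and open chromatin were read from the same nuclei. The authors deposited raw counts, as UMIs per gene or counts per peak and nucleus, not normalized, against mm10. The submitters' processing notes name Signac, Seurat, Cell Ranger ARC, Cell Ranger and FastQC, with no version or order. mm10 is the genome of another strain than BALB/c and class II genes vary between strains; the effect on the counts was not tested. The authors' deposited table has the columns of DESeq2. Its baseMean is a signal, averaged over size-factor-scaled counts, and its log2 fold changes, as deposited, run so that a gene with more counts in Sun1_KO is positive (Ift81 at 3.20). Its errors and Wald statistics are scores, per the file headers, and its deposited p-values were not used.

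The members and lists were chosen with earlier results of these data known. Nuclei with 500 or more UMIs, 300 or more genes and no more than 20% mitochondrial UMIs were used, 2172 in Sun1_KO and 3345 in Sun1_WT. Sums per genotype were compared after adding 0.5, and genes with at least 100 UMIs gave the background. All 8 genes are named; of other lists, the 2 highest and 2 lowest genes with 50 UMIs are, except that some results are not reported here. Correlations used log counts per 10000. Thinning drew 2000 UMIs per nucleus. Peaks of both libraries that overlap by 1 bp or more form a region. The ratios were tested on simulated data. Of the alternatives, 24 were planned and 3 added after seeing the data. edgeR 4.0.16 (R 4.3.3) gave the TMM factors and was used for nothing else. Python 3.11.15, numpy 2.4.6, scipy 1.17.1 and matplotlib 3.10.9 did the rest.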

Additional observations from a re-analysis of the deposited data

Results flagged for a closer look

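For 3 of the 8 genes the unthinned Sun1_KO over Sun1_WT log2 ratio was above 0 in myeloid nuclei and below 0 in tumour nuclei, with both intervals clear of 0. Ciita stood at 0.83 in myeloid and -1.69 in tumour nuclei, which are 2.52 apart. H2-DMb1 stood at 0.59 and -1.39, which are 1.98 apart, and H2-Aa at 0.38 and -0.43, which are 0.81 apart. No share over all genes is given for this rule, so the 3 of 8 stands without a background. With 1 library per genotype these differences between kinds of nuclei were not tested. In tumour nuclei with a low X share the ratio of H2-Aa was 0.53, on the same side as in myeloid nuclei, while Ciita was at -0.95 and H2-DMb1 at -0.45.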

How the results depend on the processing

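The 4-gene class II ratio stayed below 0 in myeloid nuclei (-0.07 as reported) under all alternatives run. Under TMM scaling it was -0.15 and under median-ratio scaling -0.15. It was -0.13 with mitochondrial genes in the total, -0.0189 without the 5 nuclei of each library with most class II UMIs, -0.0317 with 3 markers required, -0.15 with 0 Hmga2 UMIs, -0.0186 with Lyz2 and C1q genes left out of the markers, and -0.17 without nuclei of dendritic or B cell markers. Its interval included 0 without the top 5 nuclei (-0.06 to 0.02), with 3 markers (-0.07 to 0.01), without Lyz2 and C1q genes (-0.06 to 0.02) and thinned to 1000 UMIs (-0.15 to 0.03). In tumour nuclei (-0.67 as reported) the value under TMM scaling was -0.86 and under median-ratio scaling -0.79. It was -0.41 thinned to 1000 UMIs and -0.87 with 0 myeloid markers. It turned to 0.0348 with no limit on myeloid markers or Ptprc, where Ciita was at 0.0938, H2-Aa at 0.36 and H2-Eb1 at 0.15. Among the 3 alternatives chosen after seeing the data, it turned to 0.18 in low X share nuclei, with H2-Aa at 0.53 and H2-Eb1 at 0.17, and to 0.10 without nuclei at 10 or more class II UMIs, with H2-Aa at 0.36 and H2-Eb1 at 0.28, a choice made on the UMIs that are summed. Leaving out shared barcodes reversed no result.

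Thinned to 2000 UMIs, class II-positive shares were 83.0% in Sun1_KO and 82.9% in Sun1_WT myeloid nuclei, and 14.0% and 17.4% in tumour nuclei. At 2 UMIs they were 81.9% and 81.0% in myeloid nuclei, and 29.96% and 29.6% in tumour nuclei. Genes past 2-fold were 38 higher and 49 lower in myeloid nuclei, against 377 and 273 at 20 UMIs, and 220 higher and 319 lower in tumour nuclei, against 779 and 634 at 20 UMIs, 128 and 585 with TMM, and 493 lower with median-ratio scaling. The share of higher calls was 43.7% in myeloid nuclei, 58% at 20 UMIs, 28.9% with TMM and 29.2% with median-ratio scaling. In tumour nuclei it was 40.8%, and 55.1%, 17.95% and 24.04% in the same order. Member accessibility in tumour nuclei was -0.16 with peaks binarised, against -0.11. The cause of these shifts was not tested. No paired analysis was possible because each genotype has 1 library per assay. With no replicates, no difference here can be set against the spread between tumours.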
